A study of Mus musculus with 8 samples.

Results

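The comparison described here is the difference between 2 genotypes of mouse embryonic stem (ES) cells in their transcriptional response to losing leukemia inhibitory factor (LIF). It was computed per gene as the change from medium with LIF to 6 days without LIF in Rbp2-/- cells, minus the same change in Rbp2f/f cells. A positive value means that a gene ended relatively higher in Rbp2-/- cells after withdrawal, and a negative value that it ended relatively lower. All 8 arrays of the series enter it, and they fall into 4 groups of 2, each genotype having been sampled both in the presence of LIF and after withdrawal. Rbp2f/f conventionally denotes floxed, undeleted alleles, and Rbp2-/- the deleted state. The labels give no clone, passage or parental line for either genotype and call the samples biological replicates without naming the cultures, so the p-values measure only the spread between these samples, which may be technical. Expression was read on Affymetrix 430 2.0 arrays as probe set intensities, and 10916 of 18194 genes were bright enough to be tested.

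RBP2, now named KDM5A, is a demethylase that removes methyl groups from lysine 4 of histone H3, a mark found at active promoters, and it was first isolated as a binding partner of the retinoblastoma protein. LIF acts through its receptor, JAK kinases and STAT3 to keep mouse ES cells undifferentiated by sustaining factors such as Klf4 and Tfcp2l1. When it is withdrawn, ES cells leave the naive state and drift towards germ layer and extraembryonic fates over several days.

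Array quality bears on every value below. The 2% trimmed mean of the deposited intensities lay between 110.5 and 128.4 on 7 arrays and at 77.5 on replicate 2 of Rbp2-/- with LIF, which is 65.5% of the mean of the others. All arrays were therefore brought to a common intensity distribution by quantile normalization. On the normalized values that array correlated at 0.897 to 0.923 with arrays of the opposite medium, against 0.864 to 0.891 for its replicate, and at 0.958 with its replicate. Results are given with all 8 arrays and, where they depend on it, without that array. The first array of Rbp2f/f cells kept in LIF had a 3'/5' intensity ratio of Gapdh of 1.11 and the others had ratios of 0.78 to 0.85. The deposited intensity of the 18S ribosomal RNA control was 706 and 441 for Rbp2f/f cells in LIF, 342 and 115 for withdrawn Rbp2f/f cells, 179.5 and 32.1 for Rbp2-/- cells in LIF and 99.9 and 160.2 for withdrawn Rbp2-/- cells, so it was lowest on the dim array. The part of RNA quality in the results was not tested. The summed intensity of 6 ES cell markers (Pou5f1, Sox2, Nanog, Zfp42, Tdgf1 and Utf1) was 8222 to 13140 with LIF and 1155 to 2121 without it, so the markers of the labelled cell type were high with LIF and low without it in both genotypes. Because these are bulk samples, fewer cells of a type and less RNA per cell cannot be told apart.

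Kdm5a, the deleted gene, was read first as a check of the labels. It read 134 and 168 in Rbp2f/f cells kept in LIF and 209.6 and 225 after withdrawal. In Rbp2-/- cells it read 34.1 and 43.5, then 95 and 66.8. The Rbp2-/- arrays lay below every Rbp2f/f array in each medium, by 1.60 with LIF and 1.28 without LIF on the log2 scale. Some signal remained in Rbp2-/- cells, and whether the probe set lies inside the deleted part is not given in the sources used here. The difference in withdrawal response of Kdm5a itself was 0.32 ± 0.31 (log2, SE), with a limma adjusted p of 0.71.

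No gene passed correction over the whole table for the difference in withdrawal response. In limma, 0 of 10916 genes (0%) reached an adjusted p under 0.05, and the lowest adjusted p was 0.315. At an unadjusted p under 0.05 there were 1214 genes (11.1%), 535 with a positive difference (4.9%) and 679 with a negative one (6.22%). On the deposited values without normalization the split of that count was 1065 positive and 201 negative, with the all-gene median at 0.31 rather than 0.01, so the balance of directions depends on bringing the arrays to a common level. The median standard error of the difference was 0.32, so with 2 arrays per group only large differences could have passed.

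A second description used no variance model. With 2 arrays per group, each genotype gives 4 single-array differences between the media. For 1463 genes (13.4%) all 4 differences in Rbp2-/- lay above all 4 in Rbp2f/f, and for 1436 genes (13.2%) all 4 lay below, 2899 in all (26.6%). These percentages are the background against which the gene lists below are read. Values below that are called separated meet this rule.

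Within each genotype, withdrawal itself changed many genes. In Rbp2f/f cells 1532 genes rose (14%) and 1436 fell (13.2%) at an adjusted p under 0.05, and in Rbp2-/- cells 795 rose (7.28%) and 900 fell (8.24%). The 519 genes that rose in both make up 33.9% of the rises in Rbp2f/f and 65.3% of those in Rbp2-/-, and the 655 that fell in both make up 45.6% and 72.8%. Only 2 genes, Fbxo6 and Magel2, were called in opposite directions. The counts rest on single arrays: omission of the second withdrawn Rbp2f/f array left 875 calls of 2968 in that genotype, and omission of the first withdrawn Rbp2-/- array left 554 of 1695. A gene called in 1 genotype and not in the other is not shown to differ between them, and the test of the difference is the interaction above, which called none.

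The responses of the genotypes, which share no array, correlated at r = 0.74 across the 10916 genes, as a description, since genes are not independent replicates. Their spread over genes was 0.75 (log2 SD) in Rbp2f/f and 0.67 in Rbp2-/-. Without the dim array it was 0.75 in both. With single arrays left out in turn it ran from 0.74 to 0.80 in Rbp2f/f and from 0.66 to 0.75 in Rbp2-/-. A spread with an array left out rests on fewer arrays, so it is not like for like with one from all arrays. Genes that rose at least 2-fold in Rbp2f/f numbered 871 by point estimate and had a median response of 1.35 there and 0.77 in Rbp2-/-. Without replicate 2 of Rbp2-/- with LIF their median in Rbp2-/- was 0.98. Genes that fell at least 2-fold in Rbp2f/f numbered 692, with medians of -1.33 and -1.14. Seen from the other genotype, the 501 genes that rose at least 2-fold in Rbp2-/- had medians of 1.27 there and 1.15 in Rbp2f/f, and the 620 that fell had medians of -1.44 and -1.25. Without the dim array, 722 genes rose and 740 fell at least 2-fold in Rbp2-/-. Each set was chosen on its own genotype's response, which enlarges that response in the set.

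**Figure D1:**
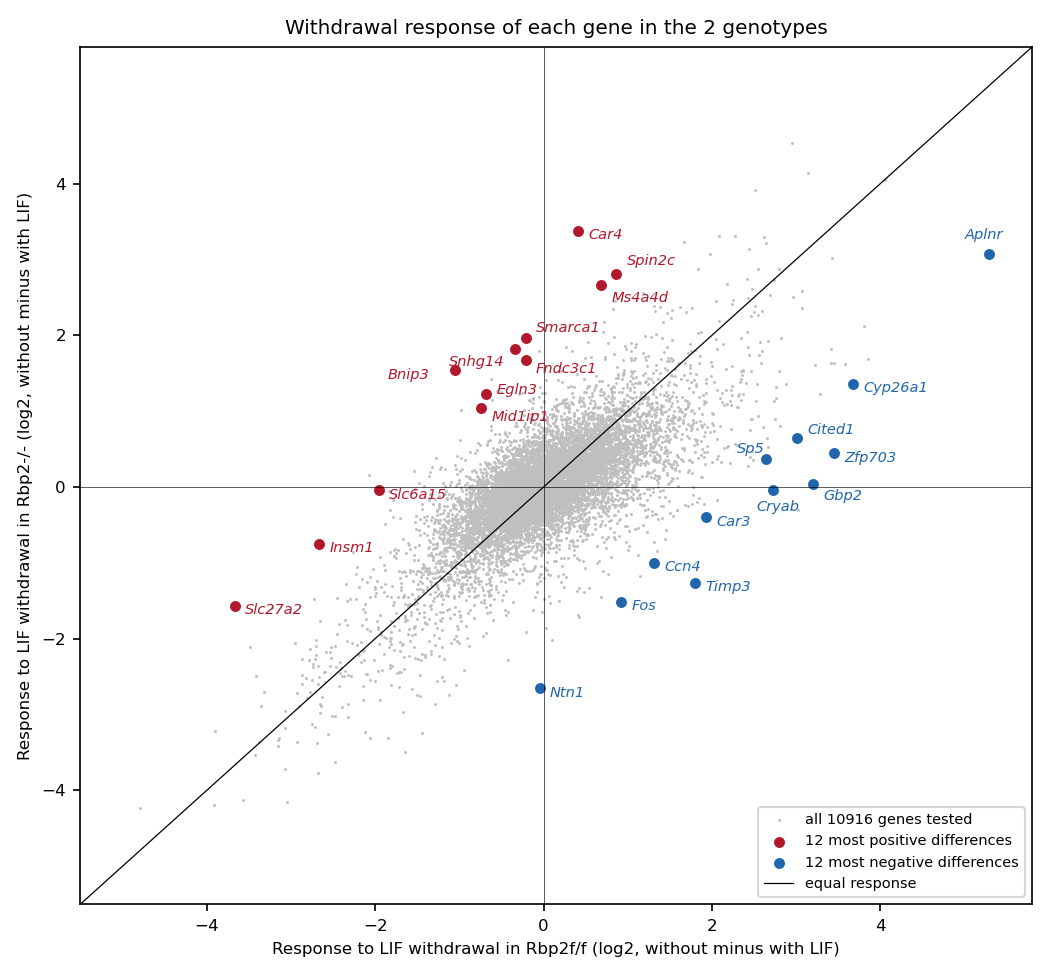
Response of each of the 10916 tested genes to LIF withdrawal in Rbp2f/f (horizontal axis, log2) and Rbp2-/- (vertical axis, log2); the diagonal marks equal responses. Coloured points are the 12 most positive (red) and 12 most negative (blue) differences among separated genes at an unadjusted p under 0.05 with a group mean of at least 100; the difference is 2.97 for Car4 and -3.16 for Gbp2.

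The 1214 genes at an unadjusted p under 0.05 were classed by the larger of their 2 responses, as point estimates. In the classes called stronger, the smaller response had the same sign or lay within 1 (log2) of 0. Some of these genes thus had responses of opposite sign. The classes were counted with all arrays only, and their dependence on the dim array was not tested. Without that array 722 genes rose and 740 fell at least 2-fold in Rbp2-/-, against 501 and 620 with all arrays. The largest class was a stronger rise in Rbp2f/f, with 485 genes. A stronger fall in Rbp2f/f followed with 345. A stronger fall in Rbp2-/- accounted for 191 and a stronger rise in Rbp2-/- for 189, and 4 responded at least 2-fold in opposite directions. Of the 535 positive differences, 294 had the larger genotype difference with LIF and 241 without LIF. Of the 679 negative ones, 264 had the larger genotype difference with LIF and 415 without LIF.

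The genes described singly are those with the largest separated differences and the members of each gene list with the smallest p. They were named for their interaction, so these values describe it and do not test it further. None passed the adjusted threshold for the difference. "Rose" and "fell" are used of a named gene's response within a genotype only where that response had a limma adjusted p under 0.05 with all arrays and with each of the 8 arrays left out in turn. That held for 41 of 65 called responses of the 103 named genes in Rbp2f/f and for 19 of 39 in Rbp2-/-. The other responses are given as values.

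The largest positive difference belonged to Car4, which encodes a membrane-anchored carbonic anhydrase. Car4 read 299 and 615 in Rbp2f/f cells in LIF and 885 and 371 after withdrawal, against 279 and 190.3, then 3827 and 1689 in Rbp2-/- cells. Values of further genes are given in this order, the 2 arrays in LIF before the 2 withdrawn ones. Both Rbp2-/- arrays without LIF stood above all the others, while the Rbp2f/f arrays of the 2 media overlapped. Car4 rose in Rbp2-/- by 3.37 ± 0.49 (log2, SE) and had a response of 0.41 ± 0.49 in Rbp2f/f, a difference of 2.97 ± 0.70 with a limma adjusted p of 0.34. A second Car4 probe set gave a difference of 3.14.

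A like pattern, a rise in Rbp2-/- without a called response in Rbp2f/f, was seen for 3 other leading genes. Smarca1 encodes SNF2L, the ATPase of the NURF chromatin remodelling complex. It read 91.4 and 147, then 118 and 81.2 in Rbp2f/f, against 26.2 and 18.8, then 193 and 90.4 in Rbp2-/-. Its separation came mostly from the medium with LIF, where Rbp2-/- was lower by 1.79 (log2), and it rose by 1.96 ± 0.34 in Rbp2-/-. Spin2c, a member of the spindlin family of histone mark readers, read 112 and 119.8, then 292 and 171 in Rbp2f/f, and 91.3 and 113, then 1059 and 617 in Rbp2-/-. Here the genotypes stood together with LIF and apart without it. Ms4a4d, a gene of the membrane-spanning MS4A family, read 16 and 42.1, then 68.2 and 40.6 in Rbp2f/f, and 16 and 19.6, then 251 and 154 in Rbp2-/-. The differences of these genes were 2.17 ± 0.48 for Smarca1, 1.95 ± 0.42 for Spin2c and 1.98 ± 0.49 for Ms4a4d, each with a limma adjusted p of 0.34.

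The group means of Fndc3c1 and Mid1ip1 were lower in Rbp2-/- with LIF and higher without it. With LIF the arrays of the genotypes overlapped for Fndc3c1. Fndc3c1 read 210.1 and 523, then 351 and 230.3 in Rbp2f/f, and 107 and 235, then 585 and 506 in Rbp2-/-, a difference of 1.89 ± 0.61. Mid1ip1, which encodes an activator of acetyl-CoA carboxylase in fatty acid synthesis, read 421 and 782, then 393 and 290.2 in Rbp2f/f, and 241 and 304, then 645 and 508 in Rbp2-/-. Its difference was 1.78 ± 0.41, and every single-array response was negative in Rbp2f/f and positive in Rbp2-/-.

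A different route to a positive value was a fall in Rbp2f/f with a weaker response in Rbp2-/-, from a lower starting level there. Slc27a2, a very long chain acyl-CoA synthetase, read 206 and 473, then 13.8 and 6.54 in Rbp2f/f, against 41.3 and 58, then 4.47 and 7.47 in Rbp2-/-. All arrays without LIF were near background. Insm1, a zinc finger factor of neuroendocrine cells, fell by 2.67 ± 0.31 in Rbp2f/f from 139.8 and 101 to 5.72 and 4.79, while Rbp2-/- went from 24.6 and 9.03 to 2.55 and 3.42. Slc6a15, a neutral amino acid transporter, fell by 1.96 ± 0.34 in Rbp2f/f from 65.2 and 148 to 16.8 and 10.9, and in Rbp2-/- stayed between 19.2 and 27.1 on all 4 arrays. For these genes the levels without LIF differed little between the genotypes, and the differences of 2.10, 1.92 and 1.91 come from the medium with LIF, where Rbp2-/- was lower by 2.34, 2.08 and 1.53. On the log2(value + 16) scale used here, levels near background limit how far a gene can fall.

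The largest negative difference was that of Gbp2, an interferon-inducible guanylate-binding GTPase. Gbp2 read 29.4 and 89.9, then 509.9 and 756 in Rbp2f/f, against 338 and 479.8, then 308 and 560.4 in Rbp2-/-. The only low arrays were those of Rbp2f/f with LIF. It rose in Rbp2f/f by 3.20 ± 0.41 and had a response of 0.04 ± 0.41 in Rbp2-/-, a difference of -3.16 ± 0.59 with a limma adjusted p of 0.34. A second probe set gave -2.96.

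Timp3 and Car3 went in opposite directions in every single-array pairing of the 2 genotypes. Timp3 encodes an extracellular matrix inhibitor of metalloproteinases. It read 51.3 and 36.2, then 135 and 265 in Rbp2f/f, and 108 and 219, then 35.1 and 82.6 in Rbp2-/-, for a difference of -3.06 ± 0.59. Its other probe sets gave -1.43, -1.26 and -2.06, so the size of this difference depends on the probe set and its sign did not. Car3, a cytosolic carbonic anhydrase of muscle and fat, read 57.4 and 56, then 239.9 and 281 in Rbp2f/f, and 148 and 213, then 117 and 146 in Rbp2-/-. It rose by 1.92 ± 0.22 in Rbp2f/f and had a response of -0.40 ± 0.22 in Rbp2-/-. Its difference of -2.32 ± 0.31 had the smallest p of the table, and still a limma adjusted p of 0.32.

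Zfp703, Cited1 and Aplnr were already higher in Rbp2-/- with LIF and rose in Rbp2f/f. Without LIF the genotypes overlapped for Zfp703, while both Rbp2f/f arrays were higher for Cited1 and Aplnr. Zfp703, a zinc finger corepressor, read 64.5 and 12.3, then 441 and 579 in Rbp2f/f, and 147 and 418, then 219.9 and 539.6 in Rbp2-/-. Cited1, a CBP/p300-binding transcriptional coactivator, read 35.7 and 34.9, then 346 and 452 in Rbp2f/f, and 78.2 and 241, then 173 and 299 in Rbp2-/-. In both genes the higher of the Rbp2-/- arrays with LIF was the dim array. Without it the difference moved from -3.00 to -2.30 for Zfp703 and from -2.36 to -1.63 for Cited1. Aplnr, the apelin receptor of early mesoderm, rose in both genotypes, from 8.56 and 10.5 to 1146 and 849 in Rbp2f/f and from 24.9 and 88.2 to 376 and 755 in Rbp2-/-. Its difference was -2.22 ± 0.61, and -1.55 without the dim array. A dimmer Aplnr probe set gave -1.02.

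Cryab, Cyp26a1, Sp5 and Ccn4 ended lower in Rbp2-/- on at least 1 array. Cryab, a small heat shock protein gene, read 264 and 108, then 947 and 1550.1 in Rbp2f/f, and 214 and 638, then 245 and 528 in Rbp2-/-. Cyp26a1, the main retinoic acid-degrading enzyme, rose from 22.1 and 46.7 to 603 and 618 in Rbp2f/f, and in Rbp2-/- went from 107 and 99.3 to 112 and 715. The 2 Rbp2-/- arrays without LIF thus disagreed, and the Cyp26a1 difference of -2.32 ± 0.89 ranged from -3.58 to -1.06 with single arrays left out. Sp5, a direct Wnt target factor, read 28.4 and 86.6, then 412 and 398 in Rbp2f/f, and 62.5 and 161, then 60.5 and 287 in Rbp2-/-. Its difference of -2.27 ± 0.89 ranged from -3.27 to -1.28 with single arrays left out, the smallest being without the first withdrawn Rbp2-/- array, as for Cyp26a1. Ccn4, a matricellular Wnt target, read 107 and 27.5, then 144 and 191 in Rbp2f/f, and 105 and 257, then 60.9 and 90.9 in Rbp2-/-. Its difference was -2.31 ± 0.70. Ntn1, the axon guidance ligand netrin, behaved otherwise: it stayed between 75.4 and 101 on all Rbp2f/f arrays and fell in Rbp2-/- from 121 and 372 to 11.8 and 32.1, by 2.65 ± 0.44.

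The 24 leading genes kept the sign of their difference in each of 13 alternative analyses that used all arrays. Only the other scalings, pseudocounts and the mean of all probe sets could have turned a sign there. Other variance models, filters, thresholds and the replicate block leave the difference itself unchanged, and array weights cannot turn a separated gene. Omission of a single array cannot turn the sign of a separated gene, so the 8 such omissions say nothing about it. Their limma adjusted p was 0.315 to 0.439 in the analysis reported and 0.042 to 0.968 over all 21 alternatives, the lowest being that of Gbp2. For 12 of them the array held 19 other probe sets, and all 19 gave the same sign. Only 10 of these 19 had a mean intensity of at least 50, and the rest were dimmer. All of them read the same samples.

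**Figure D2:**
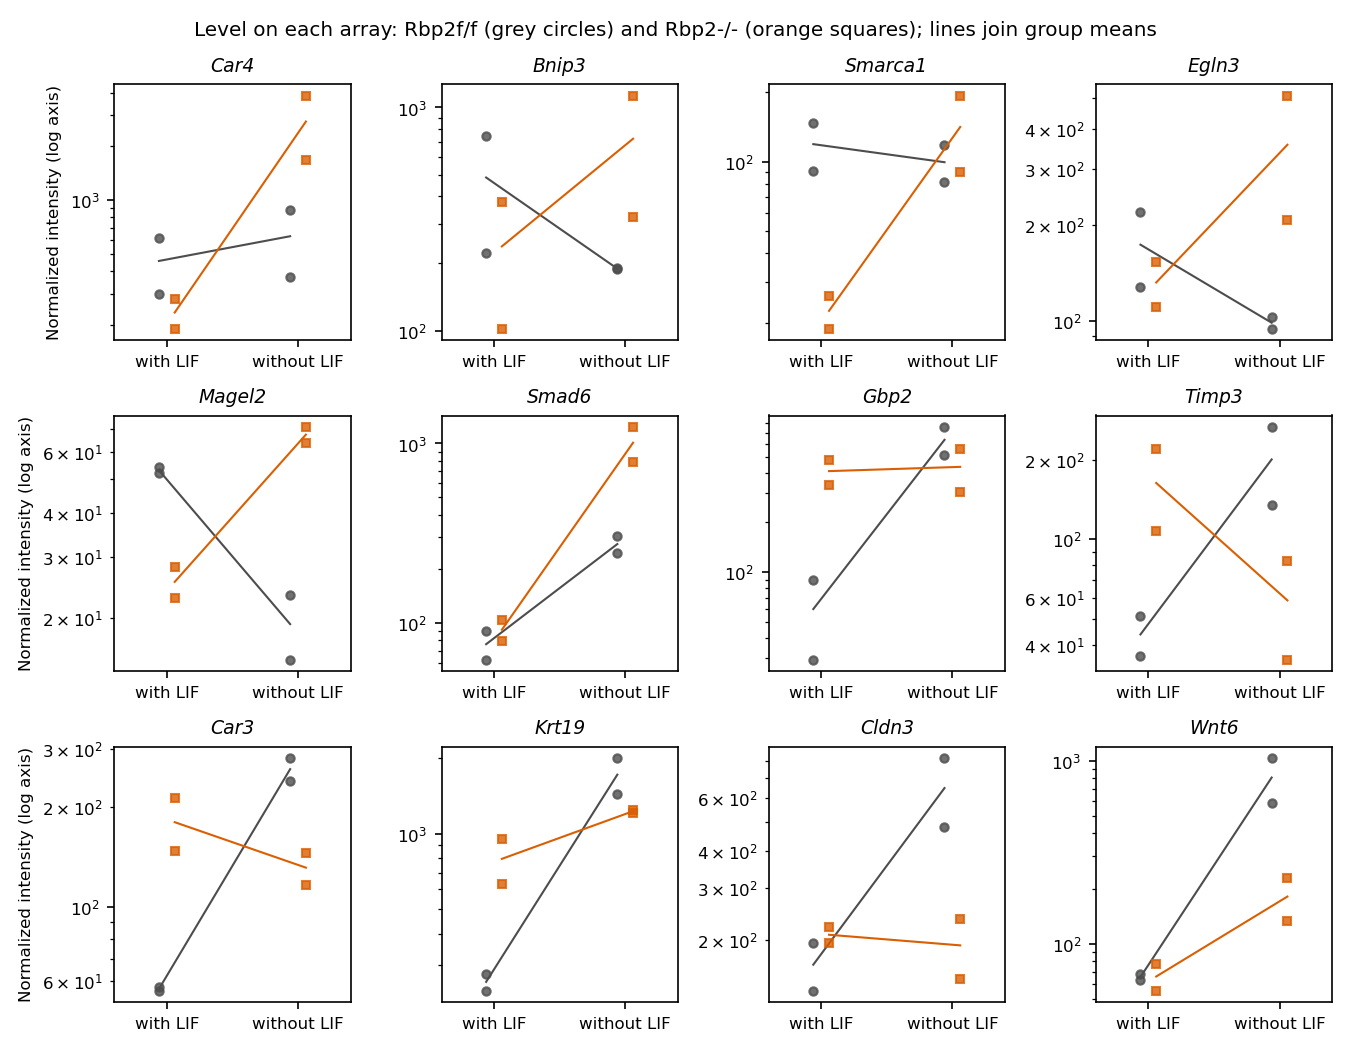
Normalized intensity (log axis) of 12 genes on each array, by medium; grey circles are Rbp2f/f, orange squares Rbp2-/-, and lines join the arithmetic means of the 2 arrays of a group. Magel2 crosses between the media, from 52 and 54.2 to 15.2 and 23.2 in Rbp2f/f and from 22.8 and 28 to 70.6 and 63.8 in Rbp2-/-, and Gbp2 is low only in Rbp2f/f with LIF.

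Gene lists were next read against the background of all genes. The 30 lists hold 610 genes, of which 578 were measured and 503 tested. Their interaction counts at an adjusted p under 0.05 were 0 throughout, as for the whole table, so each list is described by its median difference, the number of separated members and the number at an unadjusted p under 0.05. The median over all genes was 0.01. Of all genes, 13.4% were separated higher and 13.2% lower, and 4.9% and 6.22% had an unadjusted p under 0.05 in these directions. A list count near these shares says nothing about its members.

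Pluripotency genes fell in both genotypes. Of 26 core and naive pluripotency factors tested, 23 were called lower on withdrawal in Rbp2f/f and 23 in Rbp2-/- (13.2% and 8.24% of all genes), with median responses of -1.99 and -2.65. Pou5f1 read 2441 and 3075, then 273 and 356 in Rbp2f/f, and 2595 and 2150.0, then 230 and 364 in Rbp2-/-. Its levels overlapped between the genotypes in both media, and the difference was 0.11 ± 0.34, with a limma adjusted p of 0.93. The median difference of the list was -0.24, with 9 members separated lower and 2 higher. Several naive factors read lower in Rbp2-/- after withdrawal. Klf4, which STAT3 activates directly, fell from 695 and 594 to 131 and 141 in Rbp2f/f and from 841 and 1007 to 82.8 and 84.2 in Rbp2-/-. The difference of -1.12 ± 0.25 had a limma adjusted p of 0.34. A second Klf4 probe set gave -0.73. Tfcp2l1, another STAT3 target, fell from 450.2 and 302 to 83 and 99.3 and from 431 and 552 to 28.4 and 42.5, a difference of -1.46 ± 0.35. Esrrb, an orphan nuclear receptor of the naive network, fell from 724 and 680.4 to 111 and 114 and from 1054 and 866 to 66 and 58.8. Its difference was -1.15 ± 0.25, while another Esrrb probe set gave -0.08.

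The differences of the LIF and STAT3 responsive genes leaned the same way, though the median response was not lower in Rbp2-/-. Median responses were -0.90 in Rbp2f/f and -0.68 in Rbp2-/-. In each genotype 8 of 18 were called lower on withdrawal, against 13.2% and 8.24% of all genes. The median difference of these genes was -0.73, and 15 of 18 were negative, 6 of them separated and 6 at an unadjusted p under 0.05. Klf4, Tfcp2l1 and Gbx2 are members of both lists. Sgk1, a serum- and glucocorticoid-induced kinase, read 1817 and 1705, then 686 and 730.1 in Rbp2f/f, and 2532 and 3452, then 265 and 577 in Rbp2-/-, a difference of -1.57 ± 0.43. Gbx2, a homeobox factor downstream of STAT3, fell in Rbp2-/- from 134 and 149 to 1.75 and 18.7 and read 112 and 112, then 32.8 and 22.4 in Rbp2f/f. Socs3, the feedback inhibitor of the pathway, had a difference of 0.29.

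In the formative and epiblast stage list, 2 of 16 genes were separated higher and 0 lower, against 13.4% and 13.2% of all genes. Cells pass through this stage after the naive state. The median difference of the list was 0.04. Relative to all genes it ran from -0.33 without replicate 2 to 0.57 without replicate 1 of the withdrawn Rbp2-/- cells. Pim2, a serine/threonine kinase, fell in Rbp2f/f from 829.9 and 1516 to 93.1 and 119, and in Rbp2-/- went from 407 and 367 to 88.7 and 153. Sox3 read 97.2 and 190.4, then 54 and 50.4 in Rbp2f/f, and stayed between 94.2 and 123 on all Rbp2-/- arrays, a difference of 1.12 ± 0.39.

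Of 15 primitive streak genes 13 were negative, with a median of -0.52, but only 2 were separated and the median ranged from -1.13 to -0.18 relative to all genes when single arrays were left out. Its spread came from the Rbp2-/- arrays without LIF: Mixl1, a homeobox factor of the streak, read 132 and 1049.9 there, and Eomes, a T-box factor, 109.9 and 717. In withdrawn Rbp2f/f cells Mixl1 read 456 and 812 and Eomes 553 and 587. Mesoderm derivative genes were called higher on withdrawal for 14 of 21 in Rbp2f/f and 16 of 21 in Rbp2-/- (14% and 7.28% of all genes). Of these 21, 4 were separated higher and 2 lower, against 13.4% and 13.2% of all genes. Their median difference was 0.19. Relative to all genes that median changed sign, from 0.18 to -0.05, without replicate 1 of the Rbp2f/f cells in LIF. Cxcr4, the chemokine receptor of migrating mesendoderm, rose from 13.7 and 17.2 to 166 and 111 in Rbp2f/f and from 16.7 and 19.8 to 308 and 337 in Rbp2-/-. Its difference was 1.03 ± 0.32.

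Of 9 neuroectoderm genes tested, 1 was separated higher and 2 lower, and the median difference was -0.29. Those separated lower were Ncam1 and Gbx2, with differences of -1.57 ± 0.62 and -1.10 ± 0.44. That of Ncam1 became -0.82 without replicate 2 of the Rbp2f/f cells in LIF. The next brightest Ncam1 probe set gave -0.60. Olig2, a bHLH factor, fell in both genotypes, from 271 and 368 to 8.5 and 19.6 in Rbp2f/f and from 82.3 and 137 to 4.81 and 22.9 in Rbp2-/-. The neural marker Sox1 was near background, between 2.09 and 4.89, on all 8 arrays. The other markers of that set, Pax6 and Nes, read 5.79 to 60.7 and 164 to 412.

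Extraembryonic endoderm genes had a median of -0.24, with 4 of 17 separated lower and 0 higher. Sox17 rose in Rbp2f/f from 9.85 and 6.24 to 141 and 96.3, and in Rbp2-/- went from 12.9 and 12.3 to 27.7 and 48.3, a difference of -1.58 ± 0.40. Gata4 and Gata6, the other endoderm factors, had differences of 0.30 and -0.18, and the yolk sac marker Afp stayed between 1.2 and 8.29 on all arrays. In the trophoblast-associated list 3 of 16 were separated lower, against 13.2% of all genes. Its median was -0.58, and -0.36 relative to all genes without replicate 2 of the Rbp2f/f cells in LIF. The separated members were Eomes, Krt19 and Wnt7b, and the keratins of this list are also expressed by simple epithelia in general.

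Epithelial junction genes leaned almost entirely in 1 direction. On withdrawal 9 of 23 were called higher in Rbp2f/f and 0 in Rbp2-/-, where 14% and 7.28% of all genes were, with median responses of 0.95 and 0.04. The difference was negative for 22 of 23, with a median of -0.81, and 6 were separated lower and 0 higher, against 13.2% and 13.4% of all genes. Krt19, a simple-epithelium keratin, rose in Rbp2f/f from 277 and 236 to 1438 and 2003, and went from 632 and 956 to 1247 and 1213 in Rbp2-/-. Its difference of -2.01 ± 0.32 had a limma adjusted p of 0.34. Cldn3, a tight junction claudin, rose in Rbp2f/f from 135 and 196 to 480.3 and 819.6, and read 221 and 196, then 148 and 236 in Rbp2-/-. Jup, plakoglobin of desmosomes and adherens junctions, read 476 and 394, then 767 and 982 in Rbp2f/f, and 725 and 542, then 478 and 488 in Rbp2-/-, a difference of -1.34 ± 0.29. Without the dim array the list median relative to all genes was -0.60.

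Mesenchymal genes leaned the same way as epithelial ones. Of 21 mesenchymal transition genes 16 were called higher on withdrawal in Rbp2f/f and 7 in Rbp2-/-, while 14% and 7.28% of all genes were, and the median difference was -0.49, with 4 separated lower and 0 higher. Vim, the intermediate filament vimentin, rose from 2286 and 1381 to 6866 and 6683 in Rbp2f/f. In Rbp2-/- it was already high with LIF, at 4796 and 5991, and read 6577 and 6642 without it. Fn1, fibronectin, rose from 2334 and 1893 to 6783 and 6986 in Rbp2f/f and went from 2819.8 and 4384 to 4755 and 6608 in Rbp2-/-. These differences were -1.62 ± 0.29 and -1.03 ± 0.31. Other Vim probe sets gave -0.66 and -1.26, and a dimmer Fn1 probe set gave -1.13. The list median relative to all genes was -0.49 with all arrays and -0.16 without the dim array, a change of over 1.5 times.

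Feeder fibroblast and collagen markers had a median of -0.57, with 5 of 16 separated lower and 0 higher, and -0.34 relative to all genes without the dim array. Without replicate 2 of the withdrawn Rbp2-/- cells it was -0.15. The summed intensity of 10 feeder fibroblast markers, with all 10 measured, was 427 to 971 with LIF. After withdrawal it was 1683 and 1548 for Rbp2f/f cells and 3790.0 and 1385 for Rbp2-/- cells. The value of 3790.0 was mostly Col1a1, at 2766 on that array. Among the defining markers, Lum and Dcn read 3.21 to 27.2 with LIF and 13.4 to 66.6 without it. Postn read 16.2 to 31.65, then 51.7 to 149, and Pdgfrb 12.4 to 31.5, then 85.9 to 151. Thy1 read 26 to 61.1, then 23.8 to 53.65, and Col6a2 80.2 to 139, then 71.8 to 83.5. Feeder RNA as a part of these differences was not tested.

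Contractile genes driven by SRF and YAP gave the most negative median, -1.19, and all 20 tested had a negative difference. Of these, 5 were separated lower and 0 higher, against 13.2% and 13.4% of all genes. Median responses were 0.93 in Rbp2f/f and -0.15 in Rbp2-/-. Tpm1, the actin-binding protein tropomyosin, rose from 1331 and 1422 to 5268 and 5973 in Rbp2f/f, and in Rbp2-/- went from 1944 and 3521 to 4363 and 4924. Thbs1, the matrix protein thrombospondin, read 190.4 and 143, then 415 and 761 in Rbp2f/f, and 298 and 392, then 196 and 414 in Rbp2-/-. Egr1, an immediate-early SRF target, read 318 and 107, then 178 and 203 in Rbp2f/f, and 396 and 397, then 77.7 and 123 in Rbp2-/-. The list median relative to all genes shrank from -1.19 to -0.64 without the dim array and to -0.57 without replicate 1 of Rbp2-/- without LIF.

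**Figure D3:**
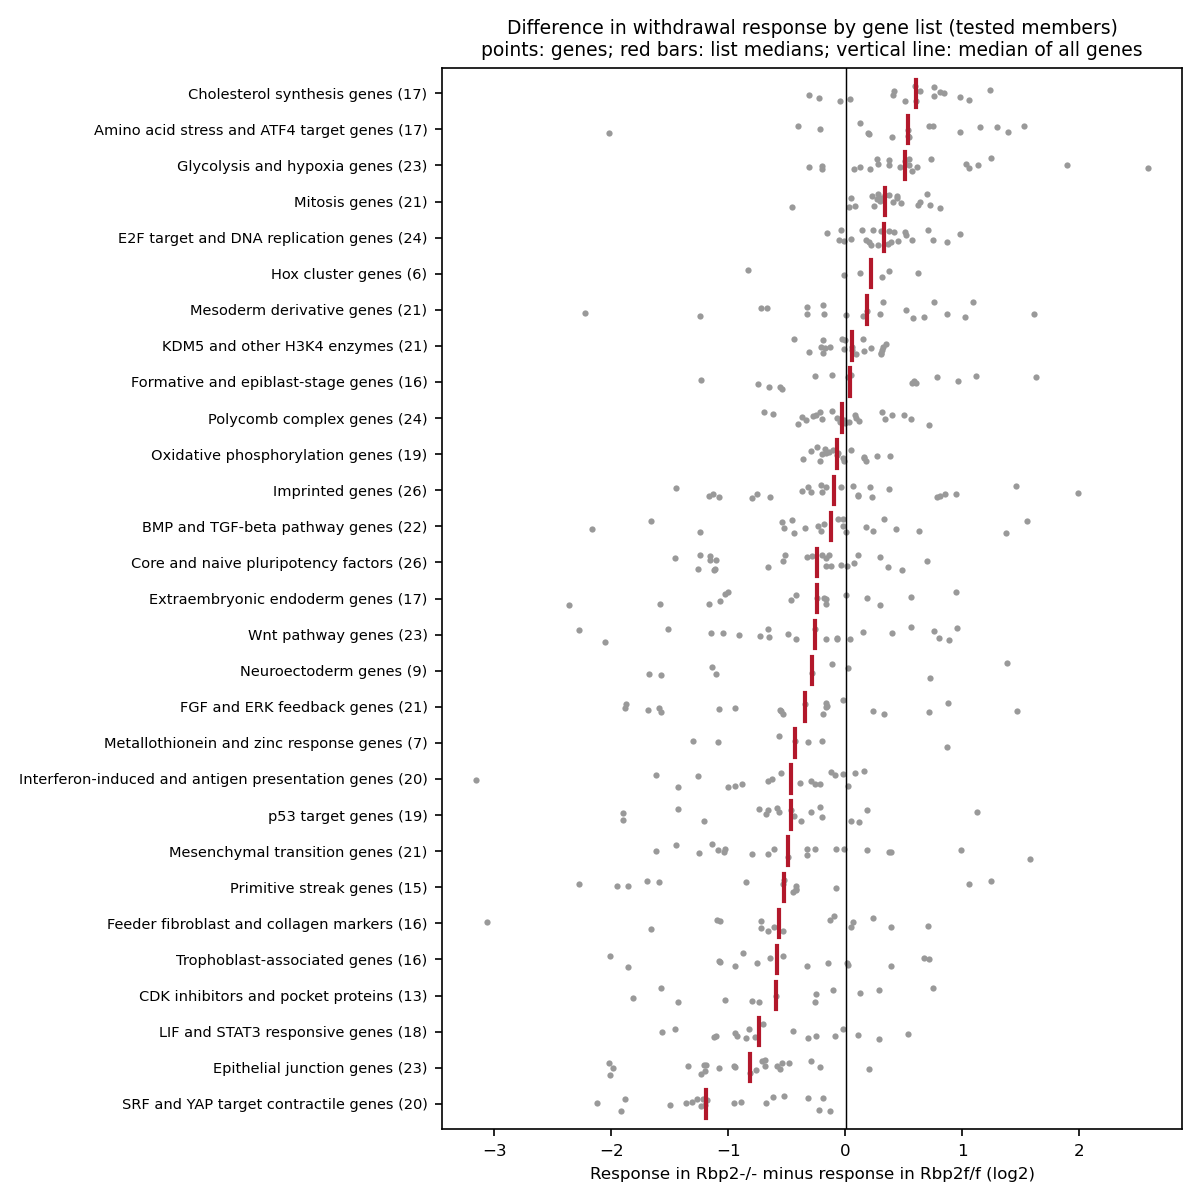
Difference in withdrawal response (Rbp2-/- minus Rbp2f/f, log2, horizontal axis) of each tested member (grey points) of 29 gene lists, with the list median as a red bar and the median of all genes, 0.01, as the vertical line; numbers in parentheses are tested members. Contractile, epithelial, and LIF and STAT3 lists lie lowest, with medians of -1.19, -0.81 and -0.73, and cholesterol, ATF4 and glycolysis lists highest, with 0.61, 0.54 and 0.51.

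Cholesterol, glycolysis and amino acid stress lists lay on the positive side. Cholesterol synthesis genes had the highest median, 0.61, with 14 of 17 positive. Of the 17, 7 were separated higher and 0 lower, against 13.4% and 13.2% of all genes. With a positive difference, 8 had an unadjusted p under 0.05, against 4.9% of all genes. On withdrawal 9 of 17 were called higher in Rbp2-/- and 3 in Rbp2f/f, against 7.28% and 14% of all genes. Hmgcs1, which makes HMG-CoA for the pathway, read 2012 and 2744, then 3385 and 3186 in Rbp2f/f, and rose from 1952 and 1937 to 4148 and 4166 in Rbp2-/-. Idi1, isopentenyl diphosphate isomerase, read 779.9 and 1048, then 861 and 695 in Rbp2f/f, and 581 and 547, then 1044 and 1001 in Rbp2-/-. Its difference of 1.06 ± 0.26 had a limma adjusted p of 0.34. Insig1, a sterol-regulated brake on the pathway, read 326 and 294, then 234 and 151 in Rbp2f/f, and 279.9 and 199, then 414 and 307 in Rbp2-/-. The list median relative to all genes, 0.60, was 0.38 without replicate 2 and 0.90 without replicate 1 of the Rbp2f/f cells in LIF.

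Glycolysis and hypoxia genes had a median of 0.51, with 20 of 23 positive, 9 separated higher and 1 lower, and 6 at an unadjusted p under 0.05. The 2 leading members are hypoxia-inducible. Bnip3, a mitophagy receptor, read 223 and 748, then 188 and 191 in Rbp2f/f, and 375 and 102, then 1124 and 324 in Rbp2-/-. Its replicates disagreed in both media, and the difference of 2.59 ± 1.00 became 1.73 without the dim array. Egln3, an oxygen-sensing prolyl hydroxylase, read 128 and 219, then 103 and 94.7 in Rbp2f/f, and 153 and 111, then 507 and 207 in Rbp2-/-, a difference of 1.90 ± 0.54, and 1.91 in a second probe set. Among glycolytic enzymes, Tpi1 read 1441 and 2273, then 1906 and 1721 in Rbp2f/f, and 1814 and 1361, then 4141 and 2899 in Rbp2-/-, a difference of 1.13 ± 0.35. Aldoa had a difference of 0.74 ± 0.26. Probe sets of Tpi1 and Aldoa may also read related transcripts.

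Because the hypoxia-inducible members led that list, their promoters are shown. The core of the hypoxia response element, ACGTG on either strand, occurred in the windows of 13 of 21 list members with an entry, and in 19.7% of all 27025 promoter windows. The windows run from 250 bases before to 50 after the RefSeq gene start on GRCm38.p6, and capitals mark the motif. That of Egln3 is chr12:54203825-54204124 on the minus strand, and that of Bnip3, where the motif reads on both strands as overlapping matches, is chr7:138909457-138909756 on the minus strand. A match is a description of letters and shows no binding.
Egln3: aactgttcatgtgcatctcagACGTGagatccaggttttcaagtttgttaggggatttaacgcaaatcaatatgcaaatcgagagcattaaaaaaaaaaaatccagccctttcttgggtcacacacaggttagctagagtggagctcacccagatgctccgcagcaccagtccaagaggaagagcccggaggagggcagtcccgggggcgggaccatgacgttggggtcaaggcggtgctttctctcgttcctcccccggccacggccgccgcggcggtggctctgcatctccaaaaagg
Bnip3: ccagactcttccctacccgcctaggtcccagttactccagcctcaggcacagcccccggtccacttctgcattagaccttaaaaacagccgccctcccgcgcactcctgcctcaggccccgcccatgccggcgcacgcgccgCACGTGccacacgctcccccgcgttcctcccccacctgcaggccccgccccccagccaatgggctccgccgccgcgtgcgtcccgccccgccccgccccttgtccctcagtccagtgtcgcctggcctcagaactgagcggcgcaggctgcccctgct

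Amino acid stress genes, many of them targets of the factor ATF4, had a median of 0.54, with 7 of 17 separated higher and 1 lower. Psph, the last enzyme of serine synthesis, read 251 and 440.0, then 127 and 93 in Rbp2f/f, and 207 and 123, then 183 and 150.4 in Rbp2-/-, a difference of 1.53 ± 0.44. Mthfd2, a mitochondrial folate enzyme, fell in Rbp2f/f from 437 and 912 to 191 and 154, and went from 680.1 and 502 to 426 and 454 in Rbp2-/-. Slc7a5, a large neutral amino acid transporter, fell in Rbp2f/f from 805 and 1267 to 236 and 178, and read 709 and 613, then 291 and 324 in Rbp2-/-. On withdrawal 8 members were called lower in Rbp2f/f and 4 in Rbp2-/-, against 13.2% and 8.24% of all genes. Oxidative phosphorylation genes stood at the background, with a median of -0.07 that became 0.03 relative to all genes on the deposited values, 0 of 19 called on withdrawal in either genotype and 2 separated in each direction.

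Mt1 and Mt2 encode metallothioneins, zinc-binding proteins induced by metals. Both fell in each genotype and read lower in Rbp2-/- after withdrawal. Mt1 fell from 3521 and 3372 to 1009 and 1517 in Rbp2f/f and from 3249.7 and 3845 to 408 and 629.6 in Rbp2-/-. Mt2 fell from 4624 and 4236 to 1681 and 2229 and from 4407 and 4413 to 725 and 1122. With LIF the genotypes overlapped in both genes, and without LIF they did not. The differences were -1.30 ± 0.34 for Mt1 and -1.08 ± 0.29 for Mt2, with limma adjusted p of 0.34 and 0.36. Mt3, the dim neural member, had a difference of 0.87 ± 0.57, which became 0.25 without replicate 1 of the withdrawn Rbp2-/- cells. The Mt1 probe set may read related transcripts.

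These neighbouring genes moved together, so their promoter windows are shown, with the metal response element core in capitals (TGCACNC or TGCGCNC, either strand). The core occurred in 4 of 6 list members with a window, Mt1, Mt2, Mt3 and Slc30a1, and in 25.6% of all windows. That of Mt1 is chr8:94178839-94179138 and that of Mt2 chr8:94172368-94172667, both on the plus strand of GRCm38.p6 and from RefSeq.
Mt1: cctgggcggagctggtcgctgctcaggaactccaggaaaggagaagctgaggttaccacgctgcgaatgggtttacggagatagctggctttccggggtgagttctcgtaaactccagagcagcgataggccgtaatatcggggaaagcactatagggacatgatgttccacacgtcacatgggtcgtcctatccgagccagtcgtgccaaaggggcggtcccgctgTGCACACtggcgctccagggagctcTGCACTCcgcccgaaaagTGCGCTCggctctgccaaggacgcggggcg
Mt2: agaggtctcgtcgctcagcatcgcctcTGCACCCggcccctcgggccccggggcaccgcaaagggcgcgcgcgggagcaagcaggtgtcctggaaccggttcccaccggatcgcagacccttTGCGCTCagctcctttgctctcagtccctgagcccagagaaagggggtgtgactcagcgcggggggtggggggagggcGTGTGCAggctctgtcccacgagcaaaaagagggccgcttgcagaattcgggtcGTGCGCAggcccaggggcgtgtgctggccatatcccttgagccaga

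The same kind of search in other lists found the sterol element TCACNCCAC in 1 of 13 windows of cholesterol synthesis genes, that of Hmgcs1, and in 1.22% of all windows. The STAT site TTCNNNGAA was found in 6 of 18 windows of the interferon list and in 8.47% of all.

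Cell cycle lists leaned to the positive side with small sizes. Of 24 E2F target and DNA replication genes 20 were positive, with a median of 0.33, 7 separated higher and 0 lower. On withdrawal 16 were called lower in Rbp2f/f and 8 in Rbp2-/-, against 13.2% and 8.24% of all genes. E2f1, a transcription factor of the cell cycle held by the retinoblastoma protein, fell in Rbp2f/f from 268 and 217 to 98.8 and 79.4, and read 211 and 153, then 128 and 108 in Rbp2-/-. Rfc4, a clamp loader subunit, read 368 and 396, then 277 and 193 in Rbp2f/f, and 407 and 281, then 469 and 377 in Rbp2-/-, a difference of 0.98 ± 0.34. Gins2, of the replicative helicase, had a difference of 0.87 ± 0.31. Of 21 mitosis genes 20 were positive, with a median of 0.34, 5 separated higher and 1 lower. Cenpe, a kinetochore motor, read 293 and 270.4, then 244 and 186 in Rbp2f/f, and 263 and 225, then 342 and 276 in Rbp2-/-.

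CDK inhibitors and pocket proteins, which restrain the cycle, had a median of -0.59, with 4 of 13 separated lower and 1 higher. Cdkn2b, the inhibitor p15, read 242 and 64.5, then 265 and 502 in Rbp2f/f, and 152 and 285, then 142 and 166 in Rbp2-/-. Its difference of -1.81 ± 0.72 became -0.97 without replicate 2 of the Rbp2f/f cells in LIF. Cdkn2a, its neighbour, read 89.2 and 70.4, then 96.5 and 173 in Rbp2f/f, and 93.9 and 112, then 88.6 and 60.4 in Rbp2-/-. Ccnd2, a D-type cyclin that promotes rather than restrains the cycle and was kept in this list, rose in Rbp2f/f from 275 and 118 to 1018 and 1149, with a difference of -1.58 ± 0.56. The list median relative to all genes was -0.26 without the dim array. Targets of p53 had a median of -0.46, with 6 of 19 separated lower and 1 higher. On withdrawal 9 were called higher in Rbp2f/f and 0 in Rbp2-/-, against 14% and 7.28% of all genes. Btg2, an antiproliferative early-response gene, read 247 and 292, then 964 and 1769 in Rbp2f/f, and 315 and 886, then 512 and 863 in Rbp2-/-. Plk2, a polo-like kinase, read 534 and 471, then 1175 and 2007 in Rbp2f/f, and 459 and 1385, then 509.6 and 808 in Rbp2-/-.

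Interferon-induced and antigen presentation genes had a median of -0.46, with 6 of 20 separated lower and 0 higher. Besides Gbp2, its relative Gbp3 read 11.7 and 11, then 56.8 and 40.5 in Rbp2f/f, and 42.4 and 68.1, then 35.8 and 39.6 in Rbp2-/-. Psmb8, an immunoproteasome subunit, rose in Rbp2f/f from 17.2 and 20.1 to 175 and 139, and went from 58.2 and 42.4 to 123 and 118 in Rbp2-/-. In all 3 genes the Rbp2f/f arrays with LIF were the lowest. Without LIF the genotypes overlapped for Gbp2 and not for Gbp3 or Psmb8.

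BMP and TGF-beta genes had a median of -0.12, with 3 of 22 separated higher and 5 lower. The ligand Bmp4 rose in Rbp2f/f from 191 and 118 to 787 and 819, and in Rbp2-/- went from 394 and 529 to 1107 and 846. Nog, a secreted BMP antagonist, rose in Rbp2f/f from 18.8 and 20 to 141 and 149 and went from 41.8 and 86.7 to 84.6 and 106 in Rbp2-/-. Smad6, an intracellular inhibitor that BMP signalling induces, rose in both, from 89.8 and 62.3 to 304 and 246 and from 104 and 79.1 to 1233 and 786. The differences were -1.24 ± 0.35 for Bmp4, -1.66 ± 0.39 for Nog and 1.56 ± 0.37 for Smad6.

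Wnt pathway genes were separated in both directions too, 4 of 23 higher and 7 lower, and their median relative to all genes changed sign, from -0.26 to 0.15, without the dim array. The ligand Wnt6 rose in Rbp2f/f from 68 and 63.3 to 584 and 1032, and in Rbp2-/- went from 55.2 and 76.9 to 133 and 228, a difference of -2.05 ± 0.44. The genotypes overlapped with LIF and did not overlap without it. Rspo3, a Wnt-enhancing ligand, had a difference of -1.51 ± 0.48, and its receptor Lgr5 one of 0.89 ± 0.29. Lgr5 read 29.4 and 23.2, then 71.4 and 62.2 in Rbp2f/f, and rose in Rbp2-/- from 26.5 and 29.1 to 141 and 144.

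FGF and ERK feedback genes had a median of -0.34, with 3 of 21 separated lower and 1 higher, against 13.2% and 13.4% of all genes. Etv4, an ETS factor induced by ERK, fell in Rbp2-/- from 784 and 661 to 76.7 and 139.8, and read 281 and 201, then 107 and 108 in Rbp2f/f. The larger genotype difference, 1.53, was with LIF. Dusp5, a phosphatase that dampens ERK, read 309 and 151, then 242 and 427 in Rbp2f/f, and 272 and 406, then 93.2 and 159 in Rbp2-/-, a difference of -1.87 ± 0.55.

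Chromatin lists stood near the background. The histone H3 lysine 4 enzymes, which include Kdm5a, had a median of 0.06, with 3 of 21 separated higher, 2 lower and 0 at an unadjusted p under 0.05. The relatives of the deleted gene, Kdm5b and Kdm5c, had differences of 0.06 and 0.00. Polycomb genes had a median of -0.02, with 1 of 24 separated higher and 4 lower. Bmi1, of Polycomb repressive complex 1, rose in Rbp2f/f from 45.4 and 42.5 to 120.2 and 106, and read 53.8 and 46.4, then 63.4 and 80.6 in Rbp2-/-, a difference of -0.69 ± 0.29. Of 6 Hox genes bright enough to be tested, 0 were separated, and the difference of Hoxd9 went from -0.83 to 0.03 without the dim array. Imprinted genes, of which 3 of 26 were separated higher and 2 lower, held both Magel2, described beside the plot of intensities by array, and Igf2r, the decoy receptor for IGF2. Igf2r rose in Rbp2f/f from 223 and 273 to 1125 and 835, and went from 219 and 244 to 325 and 547 in Rbp2-/-, a difference of -1.08 ± 0.37. The imprinted list's median relative to all genes was -0.10 with all arrays and 0.32 without the dim array.

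**Figure D4:**
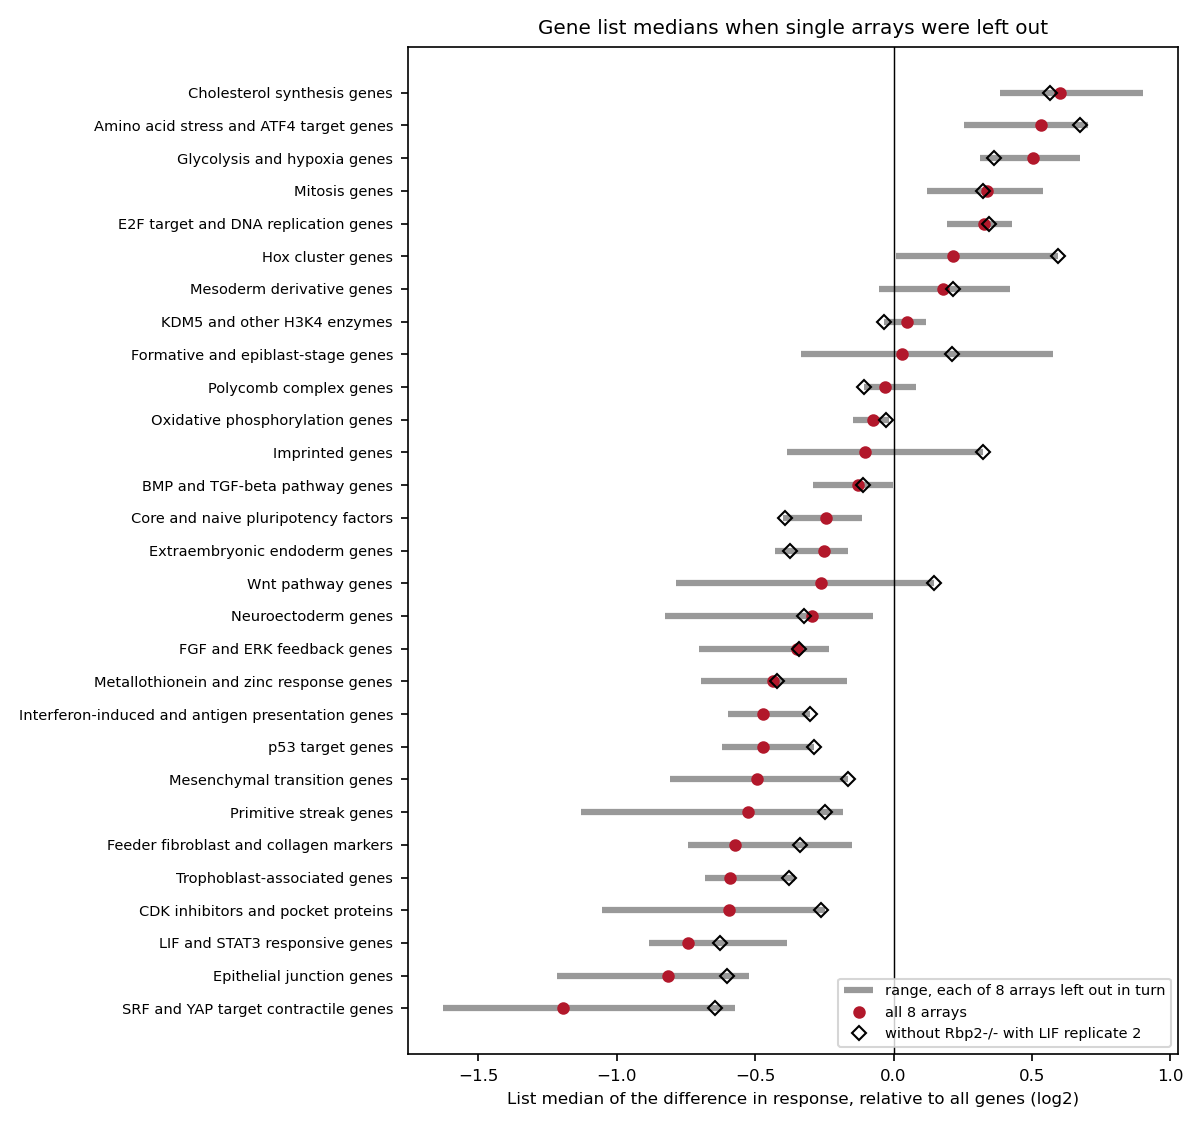
Median difference in withdrawal response of each list relative to the median of all genes (log2, horizontal axis): red circles use all 8 arrays, open diamonds leave out replicate 2 of Rbp2-/- with LIF, and grey bars span the 8 omissions of a single array. Cholesterol, ATF4, glycolysis, mitosis and E2F lists stay above 0 and the contractile, epithelial, and LIF and STAT3 lists below 0 in every omission, while the Wnt and imprinted lists cross it.

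Single arrays moved several of these medians by over 1.5 times. Without replicate 1 of the withdrawn Rbp2-/- cells the median relative to all genes was -0.52 for epithelial genes, -0.39 for LIF and STAT3 genes, -0.25 for CDK inhibitors, -0.17 for metallothionein genes, -0.30 for interferon genes and 0.31 for glycolysis genes. Without replicate 2 of the withdrawn Rbp2f/f cells it was 0.12 for mitosis and 0.19 for E2F genes. Without replicate 2 of the Rbp2f/f cells in LIF it was 0.26 for ATF4 genes and -0.07 for neuroectoderm genes, and without the dim array -0.29 for p53 targets. Without replicate 1 of the Rbp2-/- cells in LIF it was -0.11 for pluripotency factors. These medians kept their direction. Those of the formative, mesoderm, Wnt, imprinted, histone H3 lysine 4, Polycomb and Y-linked lists changed sign in at least 1 omission.

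Single arrays also moved the differences of genes named above by over 1.5 times. Without replicate 1 of the withdrawn Rbp2-/- cells Mixl1 had -0.53, Eomes -0.58, Gbx2 -0.62, Sgk1 -1.03, Igf2r -0.72, Kdm5a 0.11 and Bnip3 1.72. Without replicate 2 of the Rbp2f/f cells in LIF Egr1 had -1.16, Ccnd2 -1.02, Mthfd2 0.87, Sox3 0.68 and Hmgcs1 0.39. Without the dim array Btg2 had -1.17, Plk2 -1.12 and Tpm1 -0.77. Without replicate 2 of the withdrawn Rbp2f/f cells Cdkn2a had -0.65.

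A further contrast between the genotypes was independent of medium. The Y-linked gene Eif2s3y read 8.76 and 4.53, then 13.8 and 3.84 in Rbp2f/f, and 215 and 96.7, then 182 and 99.8 in Rbp2-/-. Its difference in withdrawal response was -0.20 ± 0.56, with a limma adjusted p of 0.92. The genotype and the line or clone of origin therefore cannot be told apart in any of these comparisons.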

How the data were processed

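RNA from 8 samples was hybridised to 8 arrays. The authors deposited 1 linear intensity per probe set and array, from 0 to 11476.5 with 39 values of 0; RNA was column-purified with DNase digestion and labelled as biotinylated cRNA, per the labels' protocols. How probe sets were summarised and scaled is not given in the sources used here. The table holds 45101 probe sets, of which 34958 have 1 gene symbol, 932 several and 9211 none in the platform annotation. Probe sets with several symbols or none were not used.

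Arrays were quantile-normalized, a gene was its probe set with the highest mean, and the dimmest 40% of genes by mean were left out, and the rest were tested on log2(value + 16), a scale that understates changes of dim genes. limma 3.58.1 in R 4.3.3 fitted 4 group means (eBayes with trend, no covariate; residual df 4, prior df 5.31). Two-sided p-values were adjusted over 10916 genes (Benjamini-Hochberg, threshold 0.05). Errors are standard errors of the fit. With 2 arrays per group, their number sets the precision. The fit was tested on simulated data.

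Named genes were Kdm5a, the 12 largest separated differences in each direction at an unadjusted p under 0.05 and a group mean of at least 100, and the 3 members with the smallest p in each list. Of 1015 genes eligible for the leading sets, 17 known only by clone or predicted names were not named. Members and lists were chosen with earlier results of these data known, so their values support nothing independently. Promoters come from RefSeq, GRCm38.p6. Alternatives were other array scalings, pseudocounts, filters, variance models, array weights, probe set summaries, a replicate block, a looser threshold and the omission of each array.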

Additional observations from a re-analysis of the deposited data

Results flagged for a closer look

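For 15 named genes every single-array response was positive in 1 genotype and negative in the other. In 7 of them the Rbp2f/f responses were positive and those of Rbp2-/- negative, and the differences were -3.06 for Timp3, -2.32 for Car3, -2.31 for Ccn4, -1.16 for Lama1, -1.34 for Jup, -1.02 for Cdkn2a and -1.61 for Gbp3. In the other 8 the directions were turned, with differences of 1.90 for Egln3, 1.78 for Mid1ip1, 0.74 for Aldoa, 1.24 for Insig1, 0.70 for Cenpe, 1.13 for Sesn1, 1.99 for Magel2 and 0.79 for Ndn. The interaction in limma is the test of these differences, and it called none of them at an adjusted p under 0.05. Most were named for a large difference or a small p, so opposite directions are in part a result of that choice.

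Magel2 was the member of this set with called responses in both genotypes when all arrays were used, -0.98 in Rbp2f/f with a limma adjusted p of 0.014 and 1.01 in Rbp2-/- with 0.019. With single arrays left out these adjusted p reached 0.104 and 0.128. Outside the naming rule, and chosen after its values were seen, Fbxo6 was called at 0.85 in Rbp2f/f and -0.69 in Rbp2-/-.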

How the results depend on the processing

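Of 103 named genes, 97 kept the sign of the difference in all 21 alternatives run, which the choice of separated genes fixes in part for the 8 omissions. Alternatives that change only the variance model, filter, threshold or replicate block leave the difference itself unchanged. With the values as deposited, 1065 genes had a positive and 201 a negative difference at an unadjusted p under 0.05, 2833 and 380 were separated, and the differences of Uqcrc1 (0.0455), Ndufa4 (0.0815), Atp5o (0.17), Eif2s3y (0.21) and Uty (0.28) turned positive. Uty also turned to 0.0228 with median centring, to 0.0192 with a pseudocount of 64 and to 0.0730 with the mean of all probe sets, where Atp5o was 0.0028. At an adjusted p under 0.1, 2566 genes were called on withdrawal in Rbp2-/-.

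Samples of the same number deviated from their group means with correlations of 0.25 to 0.27 for the 3 pairs of groups without Rbp2f/f in LIF and -0.07 to 0.00 for the 3 pairs with it, so the numbers do not pair all 4 groups. With the replicate block 1 gene was called for the difference, Gbp2, at -3.16 and an adjusted p of 0.042.

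Leaving out 1 array at a time gave 0 to 1 called genes, 201 to 846 positive and 270 to 1044 negative differences at an unadjusted p under 0.05. Separated genes numbered 1841 to 2894 higher and 1834 to 2855 lower, more than with all arrays because fewer pairings have to agree. Withdrawal calls numbered 875 to 3354 in Rbp2f/f and 554 to 1756 in Rbp2-/-. The lowest counts of the difference, 201 and 270, came without replicate 2 of Rbp2f/f without LIF, and the highest, 846 and 1044, without replicate 1 of Rbp2-/- with LIF. Without replicate 1 of Rbp2-/- without LIF they were 248 and 362. The called gene was Rpl41 without replicate 2 of Rbp2-/- without LIF (-4.12, limma adjusted p 8.7e-05), named after its values were seen; it read 502 on the other array of that group and 7519 to 8819 on the rest. Reversals among named genes in these omissions were Uty, from -0.76 to 0.51, Eif2s3y, from -0.72 to 0.32, and Hoxd9, from -1.68 to 0.0264. The causes were not tested.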

Other observations

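The genes in these paragraphs were grouped after their values were seen, so nothing here tests a group. Immediate-early genes, which growth factors, stress and handling induce within minutes, were on the negative side. Fos read 282 and 41.4, then 248 and 215 in Rbp2f/f, and 191 and 705, then 122 and 116 in Rbp2-/-, a difference of -2.43 ± 1.01 (log2, SE) that became -1.24 without replicate 2 of the Rbp2f/f cells in LIF and -1.53 without replicate 2 of the Rbp2-/- cells in LIF. Atf3 read 57 and 123, then 183 and 223 in Rbp2f/f, and 74.1 and 233, then 44.8 and 90.6 in Rbp2-/-, a difference of -2.02 ± 0.68. Atf3 had the most negative difference of the amino acid stress list, in which 14 of 17 members were positive and 3 negative. The differences of Egr1 and Btg2 were -1.88 and -1.90, and with single arrays left out they came to -1.16 and -1.17 at the smallest.

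Genes of the imprinted Prader-Willi domain were on the positive side. Snhg14, the long noncoding host of its small nucleolar RNAs, read 53.1 and 134, then 80.5 and 51 in Rbp2f/f, and 77.3 and 59.9, then 334 and 236 in Rbp2-/-. Its difference was 2.16 ± 0.51, and 1.20 in a second probe set. Ndn, which encodes necdin, read 277 and 262, then 255 and 236 in Rbp2f/f, and 274 and 410.5, then 555 and 524 in Rbp2-/-. Its difference of 0.79 became 0.51 without replicate 1 of the Rbp2-/- cells in LIF. Magel2 had a difference of 1.99, and the dimmer Snrpn and Mkrn3 had differences of 0.81 ± 0.42 and 0.85 ± 0.56. That of Snrpn was a smaller decrease in Rbp2-/-, with responses of -1.43 in Rbp2f/f and -0.61 in Rbp2-/-. Snrpn was near background in withdrawn Rbp2f/f cells, at 4.11 and 6.44. For none of these genes did the limma adjusted p of the difference reach 0.05.

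The 2 carbonic anhydrases among the leading genes stood at opposite ends, Car4 at 2.97 and Car3 at -2.32.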
